A study of Mus musculus with 8 samples.

Results

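Dimethylation of lysine 9 of histone H3 (H3K9me2) was compared between immortalized mouse embryonic fibroblasts (MEFs) that lack HAT1 (HAT1 KO, genotype HAT1-/-) and MEFs with an intact gene (HAT1 WT, genotype HAT1+/+). The H3K9me2 table held 2045 lines, and removal of 62 exact repeats left 1983 regions, of 16498 regions that the series lists for H3K9me2 and H3K9me3 together. The chromatin immunoprecipitation and sequencing (ChIP-seq) data came from 2 KO and 2 WT libraries, called KO1, KO2, WT1 and WT2. All 4 were made from cells of the C57bl6 background that had been immortalized with SV40 and were derived from mid-gestation embryos, 2 of each genotype, so that each library stands for a cell line from 1 embryo. As a spike-in, human Dbt myoblasts were combined with the MEFs before sonication, and antibody ab1220 was then used for the immunoprecipitation. No input library was used here.

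H3K9me2 is a histone mark of silent chromatin. It is deposited mainly by the G9a and GLP methyltransferases (Ehmt2 and Ehmt1) over broad, gene-poor domains, many of which lie at the nuclear lamina, while trimethylation (H3K9me3) by the SUV39H enzymes is the hallmark of pericentromeric satellite repeats. HAT1 acetylates newly made histone H4 before it is assembled into chromatin, and the comparison asks how the dimethyl mark is distributed when that enzyme is missing.

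The library totals, recovered from the deposited RPM values (reads scaled to a common library size), were 5523641 reads for KO1, 5422405 for KO2, 8421762 for WT1 and 6496881 for WT2. Of these, 526195, 489250, 412036 and 443550 reads fell in the 1983 regions. The median region held only 18, 23, 16 and 16 reads, whereas 3 to 4 regions held 50% of the reads in regions in every library. Of all regions, 1945 had a read in all 4 libraries and 915 had at least 10 reads in each. Hat1 itself was overlapped by no region, so the deletion could not be checked in these data. Levels below are given as RPM of the library total.

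The regions with most reads were copies of the mouse satellites, and their sequence is shown first because these loci carry most of the reads in regions. The stretches below are read from GRCm38 (mm10) and written 5′ to 3′. The mouse major satellite is the tandem repeat of pericentromeric heterochromatin, built of units of 234 bases, and the minor satellite, with units of 120 bases, underlies the centromere itself. Gm10800 is the region with the most reads, and the capitals mark bases covered by 12-base words that also occur in the Gm10718 region. The pair of consecutive 234-base stretches from the Gm10718 region differ at 15 letters, which are in capitals.
Gm10800, chr2:98666698-98666931, plus strand: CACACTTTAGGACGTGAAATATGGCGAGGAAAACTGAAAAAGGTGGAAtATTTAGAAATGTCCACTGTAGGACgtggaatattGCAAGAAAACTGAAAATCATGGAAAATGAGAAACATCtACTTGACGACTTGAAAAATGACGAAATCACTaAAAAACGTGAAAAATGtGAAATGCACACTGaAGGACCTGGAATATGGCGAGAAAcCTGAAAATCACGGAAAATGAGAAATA
Gm10718, first unit, chr9:3024223-3024456, plus strand: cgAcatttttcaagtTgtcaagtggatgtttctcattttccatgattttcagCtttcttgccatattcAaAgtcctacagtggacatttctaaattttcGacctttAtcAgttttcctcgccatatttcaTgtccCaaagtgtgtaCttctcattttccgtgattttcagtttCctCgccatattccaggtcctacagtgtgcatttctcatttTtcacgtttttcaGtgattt
Gm10718, second unit, chr9:3024457-3024690, plus strand: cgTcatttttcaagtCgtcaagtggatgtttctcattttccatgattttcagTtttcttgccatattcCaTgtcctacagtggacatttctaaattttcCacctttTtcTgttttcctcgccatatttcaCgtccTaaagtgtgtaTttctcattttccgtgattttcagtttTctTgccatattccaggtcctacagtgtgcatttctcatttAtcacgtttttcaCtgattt

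A second satellite sequence was found at an intronic region of Chl1, a neural cell adhesion gene, which rose in KO cells under both scalings used below. The capitals in the first pair of stretches mark the core of the CENP-B box (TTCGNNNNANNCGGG, searched on both strands), the motif that the centromere protein CENP-B binds in minor satellite DNA. This core occurred in 4 of the 1935 regions for which sequence was read (0.207%), all of them satellite-like. The Chl1 stretch held 1 core and the stretch near Gm10801 held 2. In the stretch near Pak3 the capitals mark bases covered by 12-base words of the Gm10800 region (48.8% of the stretch).
Chl1, chr6:103649068-103649307, plus strand: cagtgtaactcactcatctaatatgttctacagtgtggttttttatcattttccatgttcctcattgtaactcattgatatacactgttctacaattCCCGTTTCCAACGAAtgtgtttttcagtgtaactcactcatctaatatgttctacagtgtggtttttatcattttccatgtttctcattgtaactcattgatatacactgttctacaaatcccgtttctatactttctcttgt
Near Gm10801, chr2:98664994-98665233, plus strand: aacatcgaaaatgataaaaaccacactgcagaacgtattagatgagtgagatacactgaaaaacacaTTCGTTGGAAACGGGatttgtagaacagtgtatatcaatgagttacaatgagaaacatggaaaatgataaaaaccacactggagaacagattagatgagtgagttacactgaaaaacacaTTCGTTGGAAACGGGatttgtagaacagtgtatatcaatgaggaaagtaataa
Near Pak3, chrX:143482931-143483170, plus strand: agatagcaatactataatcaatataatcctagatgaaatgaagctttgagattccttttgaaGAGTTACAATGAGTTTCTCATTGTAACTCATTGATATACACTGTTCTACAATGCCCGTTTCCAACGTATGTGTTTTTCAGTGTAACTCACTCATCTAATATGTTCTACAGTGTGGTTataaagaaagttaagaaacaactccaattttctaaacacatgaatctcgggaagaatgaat

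The next 3 stretches are shown because they come from loci that differed between the libraries. Capitals mark bases outside annotated repeats. The Tmem267 stretch lies in the region with the smallest adjusted p of those named under library totals, and it is a short tandem repeat. The Tusc3 stretch, also a tandem repeat, belongs to a region that had no read in WT2, and the Gm9245 stretch belongs to a region with reads mainly in WT2.
Tmem267, chr13:119602398-119602637, plus strand: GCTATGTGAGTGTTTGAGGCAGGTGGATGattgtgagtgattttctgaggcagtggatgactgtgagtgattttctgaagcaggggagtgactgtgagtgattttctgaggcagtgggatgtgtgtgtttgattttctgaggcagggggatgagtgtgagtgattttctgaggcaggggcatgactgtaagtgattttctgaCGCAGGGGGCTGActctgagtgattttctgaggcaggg
Tusc3, chr8:39152978-39153217, plus strand: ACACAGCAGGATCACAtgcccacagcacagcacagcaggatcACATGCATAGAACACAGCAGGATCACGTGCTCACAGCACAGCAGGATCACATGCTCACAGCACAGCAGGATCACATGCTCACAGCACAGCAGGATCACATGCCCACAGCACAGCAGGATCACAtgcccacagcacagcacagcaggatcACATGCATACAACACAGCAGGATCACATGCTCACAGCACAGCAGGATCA
Gm9245, chr12:115617269-115617508, plus strand: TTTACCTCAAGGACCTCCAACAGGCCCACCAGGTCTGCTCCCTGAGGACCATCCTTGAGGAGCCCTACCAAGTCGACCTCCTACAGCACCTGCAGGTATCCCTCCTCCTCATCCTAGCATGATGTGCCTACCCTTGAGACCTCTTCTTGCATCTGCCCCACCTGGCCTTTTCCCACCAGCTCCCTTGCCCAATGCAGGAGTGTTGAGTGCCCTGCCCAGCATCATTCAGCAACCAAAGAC

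The last stretch stands for a sequence kind that did not share the higher RPM of the KO libraries. It lies near 4930517M08Rik, and the capitals mark 12-base words of a GGAAT tandem repeat, the building block of human satellites II and III.
Near 4930517M08Rik, chr17:4626258-4626497, plus strand: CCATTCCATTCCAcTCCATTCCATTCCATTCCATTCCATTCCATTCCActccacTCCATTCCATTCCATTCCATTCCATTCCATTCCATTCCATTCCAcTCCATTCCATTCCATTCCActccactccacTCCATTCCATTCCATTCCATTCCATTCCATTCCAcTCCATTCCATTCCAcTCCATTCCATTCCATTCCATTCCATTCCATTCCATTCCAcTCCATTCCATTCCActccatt

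In both genotypes most of the reads in H3K9me2 regions fell on satellite DNA. The 31 regions that shared at least 20% of their 12-base words with the Gm10800 region, called satellite-like here, made up 1.56% of the regions but took 73.6% of the reads in regions in KO1, 72.9% in KO2, 70.8% in WT1 and 74.5% in WT2. As a share of the whole library they took 7.01% and 6.58% in KO1 and KO2 and 3.46% and 5.09% in WT1 and WT2, so that both KO libraries lay above both WT libraries. The region just inside the 20% limit, X:143482857-143483244, shared 22.5% of its words and the one just outside, 3:56575435-56575870, shared 19.8%. All 31 satellite-like regions also overlapped a region of the H3K9me3 table. Without an input library, whether these shares exceed what the copy number of satellite DNA gives was not tested.

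Most of the remaining reads fell in 4 further classes. The 1085 regions that are at least 50% annotated repeat took 1.02%, 0.971%, 0.544% and 0.655% of the library in KO1, KO2, WT1 and WT2. The 815 regions with less repeat took 0.888%, 0.895%, 0.598% and 0.723%, and the ratio of the KO mean to the WT mean was 1.35 here. The 29 regions on the unplaced scaffold JH584304.1 took 0.389%, 0.369%, 0.178% and 0.222%, a ratio of 1.90. All 29 were higher in both KO libraries than in both WT libraries. A pair of regions at Gm42418 and AY036118 on chromosome 17, a copy of the ribosomal RNA locus, took 0.20%, 0.186%, 0.0941% and 0.125%, a ratio of 1.76. These latter regions had a GC content of 63.7% and 10.0 CpG dinucleotides per 100 bases, against 35.1% GC at the median satellite-like region.

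By position, 1198 regions were intergenic, 586 lay in introns, 105 at promoters (from 1 kb before to 100 bases after a gene start) and 94 in exons. Promoters held 61.6%, 61.3%, 61.6% and 63.9% of the reads in regions in KO1, KO2, WT1 and WT2, where the predicted genes Gm10800, Gm10722, Gm10718 and Gm10801 are annotated on satellite DNA. The median region was 282 bases wide, had a GC content of 49.0% and was 59.0% annotated repeat, where 36.4% of the genome sequence is masked as repeat. Regions that join several summits numbered 387 and held 91.8% to 92.9% of the reads in regions. H3K9me3 regions overlapped 796 of the 1983 regions, and these 796 held 95.2% to 96.0% of the reads in regions. The regions with the most reads were largely shared between genotypes, with 9 of the top 10, 44 of the top 50 and 177 of the top 200 in common.

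The 31 satellite-like regions were not alike in how far the genotypes differed. They were split, after their values had been seen and therefore without a test, by the 12-base words they share with the Gm10718 region or with the Chl1 region. The 26 regions of the Gm10718 type summed to 33825, 31481, 15100 and 23654 RPM in KO1, KO2, WT1 and WT2, a ratio of KO to WT of 1.69. Gm10800 and Gm10801, which share words with both, summed to 34053, 32266, 18670 and 26202 RPM, a ratio of 1.48. The 3 regions of the Chl1 type summed to 2203, 2010, 863 and 1009 RPM, a ratio of 2.25. Each type was higher in either KO library than in either WT library. WT2 lay closer to the KO libraries than WT1 did in all 3 types. Near-identical satellite copies share reads that the aligner can place at any of them, so the division between single copies is uncertain.

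**Figure D1:**
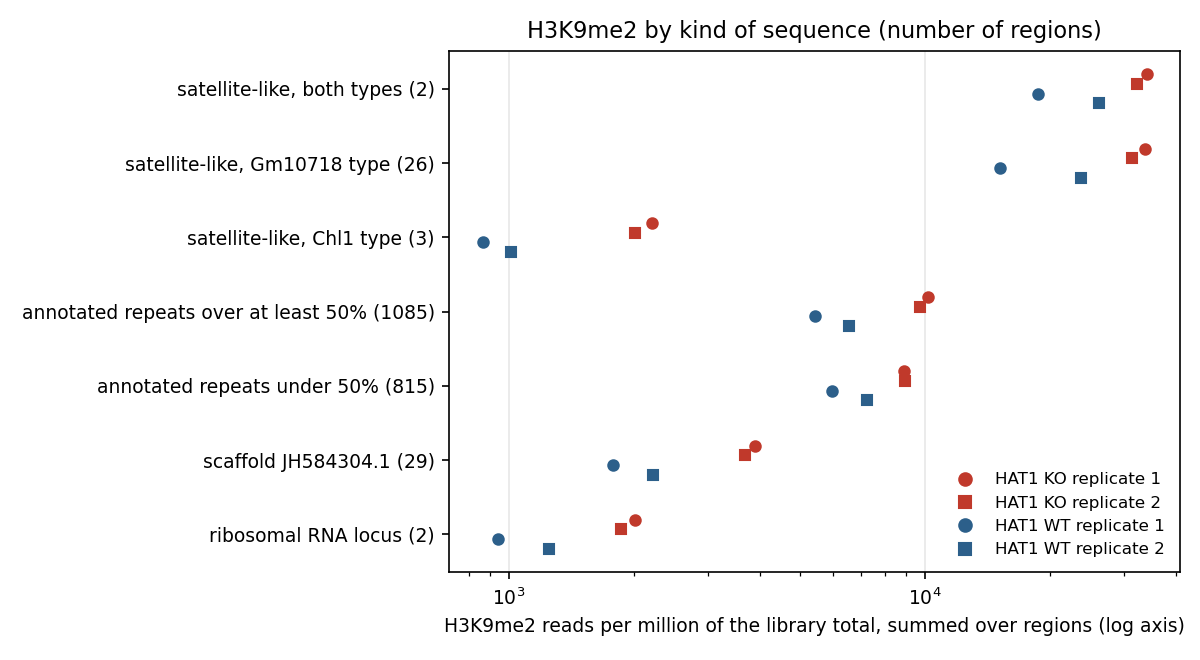
H3K9me2 level of each kind of sequence, as RPM of the library total summed over its regions on a log axis, with 1 symbol per library and the number of regions beside each name. Both KO libraries lie right of both WT libraries in all 7 kinds shown, and the Chl1 type, at 2203 and 2010 against 863 and 1009 RPM, has the widest gap of the 3 satellite types.

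The share of reads that fell in H3K9me2 regions was higher in both KO libraries than in either WT library, but the permutation test over 2 against 2 libraries cannot pass. It was 9.53% in KO1 (95% Wilson interval 9.5% to 9.55%, counting error only), 9.02% in KO2 (9.0% to 9.05%), 4.89% in WT1 (4.88% to 4.91%) and 6.83% in WT2 (6.81% to 6.85%). The KO mean was 9.27% ± 0.356 (SD, n = 2) and the WT mean 5.86% ± 1.37 (SD, n = 2). The difference of 3.41 percentage points had an exact two-sided permutation p of 0.33, the smallest that 2 against 2 libraries allow. Without the 10 regions with the most reads the shares were 3.23%, 3.10%, 1.66% and 2.15%, in the same order.

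Region by region, the size of the difference depended on the scaling. With counts scaled to the library totals, the median difference between KO and WT was 0.73 on the log2 scale (count + 1) and 77.1% of the regions were higher in KO (exact permutation p = 0.33). With counts scaled to the reads in regions, the median was 0.08 and 53.9% of the regions were higher in KO (exact permutation p = 1). Both KO libraries exceeded both WT libraries in 903 regions by library totals and the opposite held in 79, whereas by region totals the numbers were 378 and 346. Among the autosomes, chromosome 7 had the lowest median fitted log2 fold change under library totals, -0.10, and chromosome 19 the highest, 1.38. Scaling by region totals asks which loci gained or lost a share of the marked reads and removes a shift common to all of them. Neither scaling uses the human spike-in reads, which were not analysed here.

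Under library totals, 109 of 1983 regions rose in KO cells (5.5% called) and 5 fell (0.252% called) by edgeR's quasi-likelihood test at a false discovery rate (FDR) under 0.05. All 109 had both KO libraries above both WT libraries, and their median log2 fold change was 1.07. They lay on 23 chromosomes and scaffolds, 107 of them (98.2%) overlapped H3K9me3 and 99 joined several summits. By class, 19 were satellite-like, 24 lay on scaffold JH584304.1 and 66 elsewhere. At an unadjusted p under 0.05, 333 regions were higher and 19 lower. When either KO1 or KO2 was left out, no region passed, and without WT2 206 rose.

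The loci with the most reads had higher values in both KO libraries by library totals and did not pass edgeR with all 4 libraries. Gm10800 had 30660 and 29135 RPM in KO1 and KO2 and 17280 and 24084 RPM in WT1 and WT2 (log2 fold change 0.53 ± 0.68 SE, edgeR FDR 0.678). At Gm10722 the log2 fold change was 0.72, at Gm10718 0.58, at Gm33838 0.74 and at Gm10801 0.90, with edgeR FDRs of 0.400, 0.458, 0.319 and 0.159. Gm10801 had 18744, 16973, 11700 and 13762 reads in KO1, KO2, WT1 and WT2. In all 5 the KO and WT libraries did not overlap, but the WT libraries stood far apart. Leaving out 1 WT library moved these values. Without WT1 only Gm10801 passed (0.62, edgeR FDR 0.0111), and the other 4 ran from 0.31 at Gm10800 (edgeR FDR 0.640) to 0.47 at Gm33838 (edgeR FDR 0.137). Without WT2 all 5 passed, with log2 fold changes from 0.79 at Gm10800 (edgeR FDR 0.0195) to 1.23 at Gm10801 (edgeR FDR 6.13e-10), and DESeq2 with all libraries called Gm33838 (adjusted p = 0.0394) and Gm10801 (adjusted p = 0.0164). Under region totals these 5 had log2 fold changes between -0.13 and 0.24. Their own reads make up much of that scale, which holds such values near 0. Gm10800 alone held 32.2%, 32.3%, 35.3% and 35.3% of the reads in regions in KO1, KO2, WT1 and WT2.

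The smallest adjusted p among the named regions came from Tmem267, a gene for a transmembrane protein of little known function on chromosome 13. Its intronic region 13:119601851-119602975 had 859 and 581 reads in KO1 and KO2 and 438 and 162 reads in WT1 and WT2, or 156, 107, 52.0 and 24.9 RPM. It rose by 1.77 ± 0.25 on the log2 scale (SE, edgeR FDR 4.73e-09). A second region in the same gene, 13:119596627-119597128, had 578, 384, 325 and 84 reads and rose by 1.76 (edgeR FDR 1.01e-08). By library totals the groups did not overlap at either region, although each genotype spread widely, WT2 being lowest. Under region totals both still rose, by 0.98 (edgeR FDR 0.00492) and 0.95 (edgeR FDR 0.0215), although at the second region the groups then overlapped. Leaving out 1 WT library moved the values of both regions. By library totals they were 2.40 and 2.76 without WT1 and 1.34 and 1.18 without WT2. By region totals they were 1.95 and 2.31 without WT1. Without WT2 neither passed by region totals, at 0.41 (edgeR FDR 0.0679) and 0.26 (edgeR FDR 0.822). DESeq2 by region totals gave adjusted p of 0.438 and 0.587, and by library totals 4.36e-04 and 0.0767.

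Chl1 was the only satellite-like region called higher by edgeR under both scalings. The region 6:103648966-103649407, of 442 bases with a GC content of 30.3%, had 9203 and 8143 reads in KO1 and KO2 and 5648 and 4659 reads in WT1 and WT2, or 1666, 1502, 671 and 717 RPM. It rose by 1.19 ± 0.32 on the log2 scale by library totals (SE, edgeR FDR 0.00565) and by 0.50 ± 0.12 by region totals (SE, edgeR FDR 0.0123). The groups did not overlap. The call by region totals was lost with TMM factors (log2 fold change 0.52, edgeR FDR 0.368) and in DESeq2 (adjusted p = 0.091), while DESeq2 by library totals gave 4.36e-04. With replicate number added as a block, it passed neither by library totals (edgeR FDR 0.171) nor by region totals (edgeR FDR 0.484). By region totals its log2 fold change was 0.70 without WT1 and 0.32 without WT2. The 2 Tmem267 regions and Chl1 were the only 3 regions (0.151% called) that rose by region totals, where 44 were higher at an unadjusted p under 0.05. The smaller region of the same type near Pak3, X:143482857-143483244, had 17.6, 26.4, 5.70 and 7.85 RPM and rose by 1.70 by library totals (edgeR FDR 6.57e-04) but not by region totals (edgeR FDR 0.289).

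Among the regions called higher under library totals, those with the largest fold changes held few reads and were mostly annotated repeat. A region of 239 bases on the X chromosome nearest 5430427O19Rik (X:85949386-85949624) had 26 and 32 reads in KO1 and KO2 and 5 and 6 reads in WT1 and WT2, and rose by 2.79 (edgeR FDR 0.0440). The region 1:28855539-28856130 nearest Gm5697 had 49, 41, 12 and 9 reads and rose by 2.53 (edgeR FDR 0.0105). The region 12:93576935-93577253 nearest 4930559C10Rik had 64, 60, 27 and 14 reads and rose by 2.06 (edgeR FDR 0.00538). At each of the 3 the KO libraries agreed closely and lay above both WT libraries. The X region lost its call without WT1 (edgeR FDR 0.246) and without WT2 (edgeR FDR 0.0882).

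The other called regions of this list owed part of their size to 1 library. The region 8:20946140-20946535 nearest AY761185, in the defensin neighbourhood of chromosome 8, had 62 and 83 reads in KO1 and KO2, 46 in WT1 and 0 in WT2, which allows up to 0.462 RPM there, and rose by 2.23 (edgeR FDR 8.72e-04). The intronic region 8:39152920-39153276 of Tusc3, a subunit of the oligosaccharyltransferase complex, had 50, 44, 37 and 0 reads and rose by 1.91 (edgeR FDR 0.0449). In RPM, WT1 had 5.46 and 4.39 at these regions, still below both KO libraries. Without WT2 the first rose by 1.28 (edgeR FDR 0.0120) and Tusc3 did not pass (0.96, edgeR FDR 0.296). WT2 had at most 1 read where every other library had at least 20 in 5 regions, all on chromosome 8, including a second Tusc3 region (8:39155312-39155703) with 36, 46, 42 and 0 reads.

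Genes other than those the naming rule gives were also overlapped by regions that rose under library totals, and the following were picked after their values had been seen. Smo, the signal transducer of the hedgehog pathway, had 49.2, 35.0, 19.8 and 17.1 RPM in KO1, KO2, WT1 and WT2 at 6:29747957-29748662 (log2 fold change 1.19, edgeR FDR 0.00179). Aida, an axin-binding protein gene, had 280, 256, 144 and 117 RPM (1.04, edgeR FDR 0.00179). Sos2, a guanine nucleotide exchange factor for Ras, had 24.6, 18.4, 10.4 and 4.46 RPM (1.52, edgeR FDR 0.00204). The groups did not overlap at any of the 3, and under region totals none passed (edgeR FDR 0.821, 0.773 and 0.681). Lars2, the mitochondrial leucyl-tRNA synthetase, and Copg2, a coatomer subunit, rose by 0.81 and 1.10 (edgeR FDR 0.0352 and 0.0483).

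**Figure D2:**
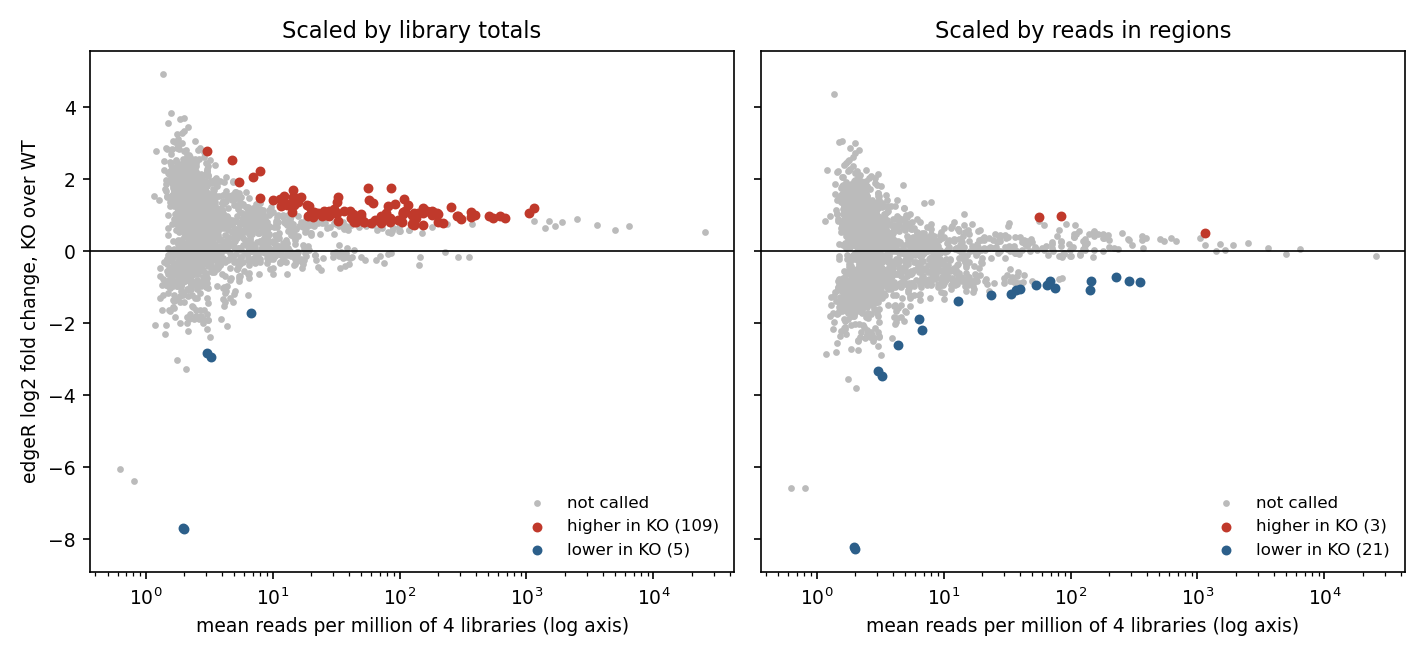
Log2 fold change of KO over WT for each H3K9me2 region against its mean RPM on a log axis, scaled by library totals in the left panel and by reads in regions in the right panel, with regions past an edgeR FDR of 0.05 coloured. The called regions are 109 higher and 5 lower on the left and 3 higher and 21 lower on the right.

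Under region totals 21 regions fell in KO cells (1.06% called), and at an unadjusted p under 0.05 123 were lower. In 18 of the 21 both KO libraries were below both WT libraries by this scaling. Of the 21, 5 fell under both scalings and 16 by region totals alone. For the latter, the log2 fold changes by library totals ran from -2.07 to -0.03. In 13 of these 16, KO and WT libraries did not overlap by library totals either. No region was called in opposite directions. The 21 became 79 without WT1 and 62 without WT2, and 0 without either KO library.

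Some of the 21 had similar RPM in the 4 libraries, and those described next were picked after their values had been seen. The Fam227b region 2:126147693-126148133 had 1784 and 1825 reads in KO1 and KO2 and 2884 and 2583 reads in WT1 and WT2, or 323, 337, 342 and 398 RPM. Its log2 fold change was -0.17 by library totals, and it fell by 0.85 by region totals (edgeR FDR 4.81e-05). The Ybx3 region, in a gene for a cold-shock domain RNA-binding protein, had 263, 282, 270 and 337 RPM. The region 17:4626081-4626694 nearest 4930517M08Rik had 225, 226, 210 and 250 RPM. WT2 was the highest library at each, and the last 2 of these regions fell by 0.83 and 0.71 by region totals (edgeR FDR 2.12e-04 and 0.00900).

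Some of these regions shared sequence. Of the 1935 regions with sequence, 20 (1.03%) held at least 5 of the 12-base words of the 7SL RNA genes Rn7s1, Rn7s2 and Rn7s6, which encode the RNA of the signal recognition particle and from which human Alu elements descend, and 21 (1.09%) held words of the GGAAT repeat. These kinds were defined after the values had been seen, so no test was made. The 7SL regions summed to 755, 777, 778 and 931 RPM in KO1, KO2, WT1 and WT2, a ratio of KO to WT of 0.896. The GGAAT regions summed to 560, 576, 555 and 631 RPM, a ratio of 0.958. The 1894 regions of neither kind summed to 89806, 84929, 45670 and 64339 RPM, a ratio of 1.59, with KO and WT apart. None of the 41 regions was called under library totals, where 82 of the 1894 regions of neither kind were called higher and 5 lower. Over all regions, with the unsearched scaffolds, the shares were 5.5% higher and 0.252% lower. Calls were more frequent in deeper regions: at a mean of at least 50 reads, 0 of 34 regions of these kinds and 76 of 283 of neither kind were called higher. By region totals 6 of the 41 fell (1.06% of all regions), 4 of the 7SL kind and 2 of the GGAAT kind. Chromatin of human cells was present in every library, and whether reads in these regions came from it was not tested.

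Well-counted regions left a gap in fold change. The 135 regions with a mean of at least 200 reads fell into 28 with log2 fold changes between -0.48 and 0.17 by library totals and 107 between 0.50 and 1.77, with none in between. The lower set held 18 intronic regions, 12 regions of the 7SL or GGAAT kind, 16 of neither kind and no satellite-like region. The upper set held 27 satellite-like regions, 26 regions on scaffolds, whose sequence was not searched, and none of either kind among the searched regions. The split was made on the fold change itself, so calls within each set are not counted.

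**Figure D3:**
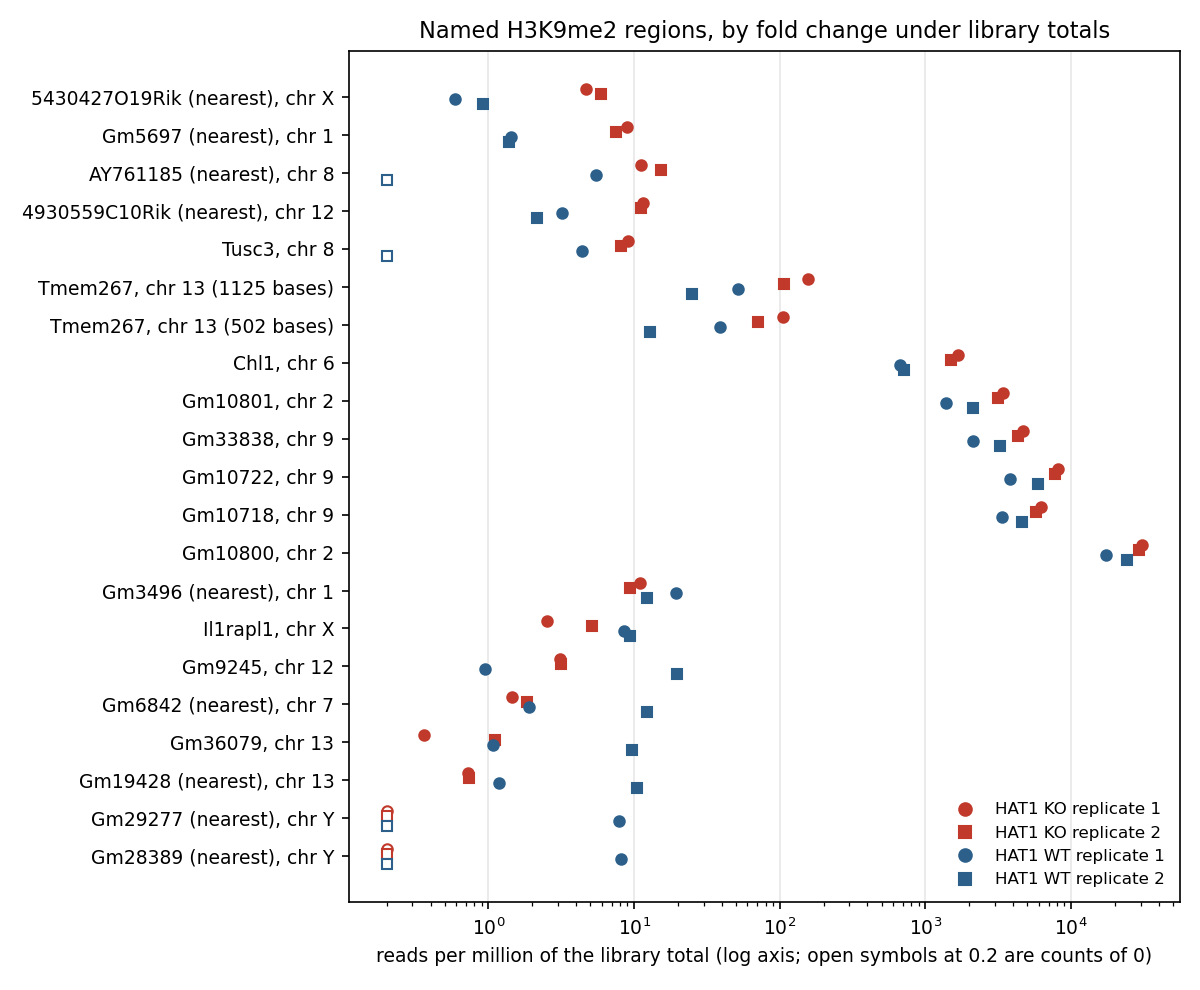
RPM of each library on a log axis at the H3K9me2 regions chosen by the naming rule, with 1 symbol per library and counts of 0 drawn as open symbols at 0.2 RPM. At Chl1 and Tmem267 both KO libraries lie above both WT libraries, and at Gm9245 and the region nearest Gm19428 WT2 lies apart from the other 3.

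Regions that fell under library totals had reads mainly in 1 WT library. The region 13:65681257-65681836 nearest Gm19428 had 4 and 4 reads in KO1 and KO2, 10 in WT1 and 68 in WT2 (log2 fold change -2.95, edgeR FDR 0.0213). The promoter region of Gm36079 (13:120026714-120027067) had 2, 6, 9 and 63 reads (-2.83, edgeR FDR 0.0418). The exonic region of the predicted gene Gm9245 (12:115617124-115617539) had 17, 17, 8 and 128 reads (-1.71, edgeR FDR 0.0368). In RPM, WT1 lay far below WT2 at all 3, within or near the range of the KO libraries at the first pair and below it at Gm9245. Without WT2 none passed, and the values were -0.69 (edgeR FDR 0.641) nearest Gm19428, -0.53 (edgeR FDR 0.709) at Gm36079 and, with the sign turned, 1.69 (edgeR FDR 0.555) at Gm9245.

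The other pair of such regions lay on the Y chromosome and had reads in WT1 alone. The region Y:11858079-11858481 had 68 reads in WT1 and the region Y:259088-259482 had 66, and both had 0 in KO1, KO2 and WT2. Counts of 0 allow up to 0.543 RPM in KO1, 0.553 in KO2 and 0.462 in WT2, and WT1 had 8.07 and 7.84 RPM. Another Y region, Y:171324-171566, had 21 reads in WT1 and 0 elsewhere. The 10 regions of this chromosome summed to 87.1, 72.3, 89.4 and 38.8 RPM in KO1, KO2, WT1 and WT2. Reads at near-identical Y repeats can be placed at any copy.

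The 3 regions named under region totals alone include members of the 7SL kind (Il1rapl1) and of the GGAAT kind (nearest Gm3496). The region X:87899249-87899691 overlaps Il1rapl1, an interleukin-1 receptor family member linked to synapses, and the predicted gene Gm24812. It counts as a promoter because a gene start lies there, which was not traced to Il1rapl1. It had 14 and 28 reads in KO1 and KO2 and 72 and 61 reads in WT1 and WT2, and it fell by 1.89 (edgeR FDR 0.0463). The region 1:44951028-44951282 nearest Gm3496 had 61, 51, 164 and 80 reads and fell by 1.39 (edgeR FDR 0.0448). The region 7:7521068-7521609 nearest Gm6842 had 8, 10, 16 and 79 reads and fell by 2.59 (edgeR FDR 0.0434), again with most reads in WT2. Without WT2 the value nearest Gm6842 was -1.11 (edgeR FDR 0.990), and without WT1 that nearest Gm3496 was -0.71 (edgeR FDR 0.445) and that of Il1rapl1 -1.72 (edgeR FDR 0.0767).

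Neighbouring regions tended to share the library that stood apart. In the stretch of 25 regions on chromosome 13 from 65 to 67 Mb, rich in zinc finger and predicted genes, the summed levels were 34.9, 32.8, 20.7 and 173 RPM in KO1, KO2, WT1 and WT2, and WT2 was highest in 25 of 25. WT2 was over 3 times every other library in 20 of them. On chromosome 12 from 115 to 116 Mb, which holds immunoglobulin heavy chain variable segments, 17 regions summed to 35.5, 31.9, 13.9 and 140 RPM, and WT2 was highest in all 17. On chromosome 7 from 7 to 9 Mb, with vomeronasal receptor genes, 9 regions summed to 13, 17.9, 8.31 and 65.9 RPM, and WT2 was again highest in each. WT1 was lower than both KO libraries in the sums of all 3 neighbourhoods. These neighbourhoods were picked after their values had been seen.

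Other neighbourhoods, also picked after their values had been seen, had both KO libraries above both WT libraries in their sums, and their counts of regions that rose stand against 5.5% over all regions. On chromosome 9 from 3 to 4 Mb, the satellite stretch that holds Gm10722 and Gm10718, both KO libraries exceeded both WT libraries in 19 of 19 regions and 13 rose by library totals. On chromosome 11 from 3 to 4 Mb, around Sfi1 (a centriole protein) and Drg1 (a GTPase), 18 regions summed to 1205, 1162, 690 and 705 RPM and 6 rose. On chromosome 17 from 13 to 14 Mb, around 2700054A10Rik, 7 regions summed to 907, 732, 384 and 362 RPM and 5 rose. On chromosome 1 from 85 to 86 Mb, with the Sp100 family of nuclear body genes, 13 regions summed to 116, 134, 61.7 and 70.0 RPM and 1 rose. By contrast, 75 regions on chromosome 8 from 19 to 21 Mb summed to 595, 596, 355 and 737 RPM, with WT2 highest in 49 and at 0 in 4.

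**Figure D4:**
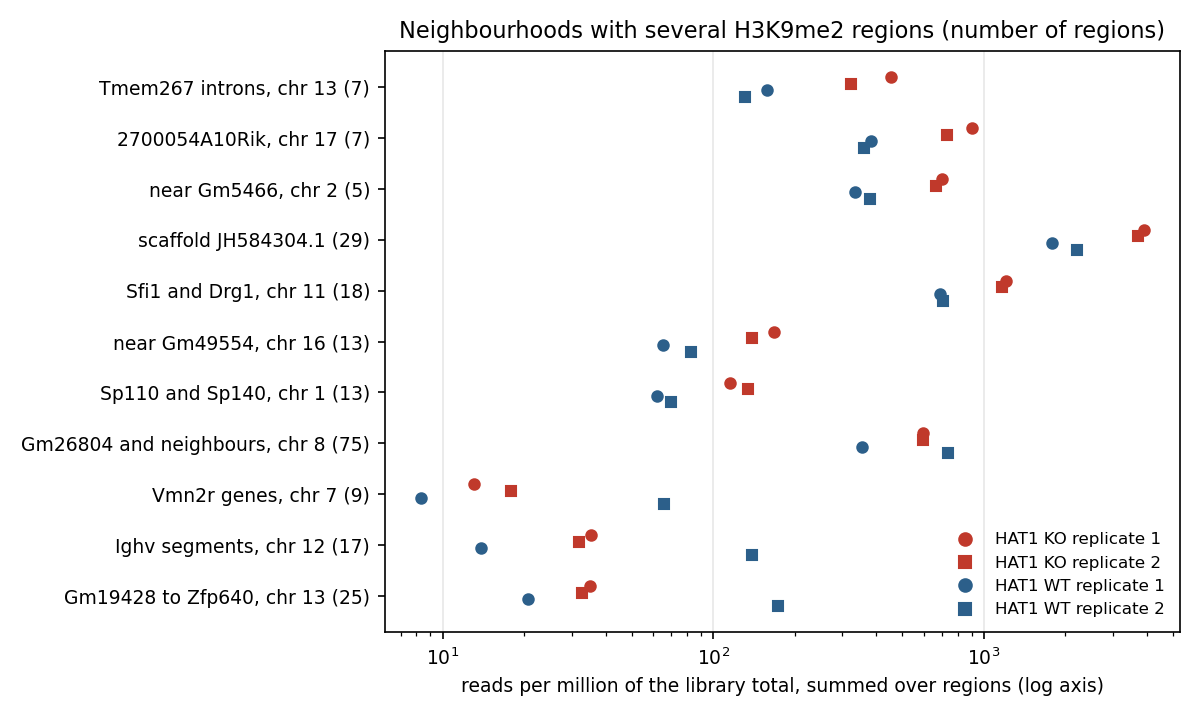
Summed RPM of the H3K9me2 regions in each neighbourhood on a log axis, with 1 symbol per library and the number of regions beside each name. WT2 is the highest library at the Gm19428 to Zfp640 stretch of chromosome 13 (173 RPM) and at the Ighv segments of chromosome 12 (140 RPM), and both KO libraries are highest at 2700054A10Rik on chromosome 17 and on scaffold JH584304.1.

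A single library standing apart was not limited to these stretches. WT2 exceeded 3 times the RPM of every other library in 53 regions, 24 of them on chromosome 13. The same held for KO1 in 59 regions, for KO2 in 93 and for WT1 in 4. On the low side, the RPM of every other library was over 3 times that of WT1 in 128 regions, of WT2 in 70, of KO1 in 15 and of KO2 in 11. Of the 89 regions within the first 1 Mb of chromosome sequence, which lies next to the centromere except on the Y chromosome, 24 rose by library totals (5.5% over all regions), and together they took 2.98%, 2.77%, 1.36% and 2.07% of the library in KO1, KO2, WT1 and WT2. The 140 regions of the X chromosome summed to 661, 825, 305 and 614 RPM, so that WT2 was close to KO1.

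Counts were also summed over bins of 1 Mb, since single regions held few reads. Of 1055 bins with a region, 665 held only 1 and the fullest 60. By library totals 75 bins rose in KO (7.11% called) and 7 fell (0.664% called), and by region totals 2 rose (0.19% called) and 21 fell (1.99% called). All 75 had both KO libraries above both WT libraries, and none of the 7 had both below. Without KO1 or without KO2 no bin passed.

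The bins with the smallest adjusted p repeated the single loci. The bin from 119 Mb of chromosome 13, which holds Tmem267, had 2516 and 1756 reads in KO1 and KO2 and 1331 and 848 reads in WT1 and WT2, and rose by 1.43 by library totals (edgeR FDR 5.24e-07) and by 0.70 by region totals (edgeR FDR 0.0189). By region totals it was 1.13 without WT1 and 0.37 without WT2. The bin from 103 Mb of chromosome 6, with Chl1, had 9504, 8315, 5778 and 4829 reads and rose by 1.19 and 0.49 (edgeR FDR 9.94e-05 and 0.0134), the latter being 0.32 without WT2. The bin from 13 Mb of chromosome 17 had 5009, 3971, 3230 and 2352 reads and rose by 1.14 by library totals (edgeR FDR 1.37e-04) but not by region totals (edgeR FDR 0.156). Its value by region totals was 0.73 without WT1 (edgeR FDR 9.29e-21) and 0.17 without WT2 (edgeR FDR 0.193). Both KO libraries led in these 3 bins.

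The bins that fell with the smallest adjusted p rested on 1 WT library each. The bin from 65 Mb of chromosome 13 had 87, 56, 68 and 464 reads (-1.60, edgeR FDR 9.94e-05) and the bin from 66 Mb had 106, 122, 106 and 659 (-1.45, edgeR FDR 9.94e-05), both by library totals. Without WT2 their values turned to 0.69 and 0.73 and neither passed (edgeR FDR 0.415 and 0.242). The first bin of the Y chromosome had 0, 0, 87 and 0 reads.

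Genes of the H3K9 methylation machinery overlapped no H3K9me2 region. Of 61 genes looked up singly, 1 was overlapped by an H3K9me2 region. It was Kcnq1, a potassium channel gene of an imprinted cluster, whose region 7:143368220-143368473 had 66 and 79 reads in KO1 and KO2 and 167 and 92 reads in WT1 and WT2 and did not pass by library totals (log2 fold change -0.36, edgeR FDR 0.566) or by region totals (edgeR FDR 0.162). None of 6 H3K9 methyltransferase genes, 7 demethylase genes, 7 reader and partner genes, 8 genes of the HAT1 pathway, 8 germline genes, 5 lamina genes or 10 fibroblast genes was overlapped. The nearest region to Ehmt2, the G9a gene, was 1317 kb away.

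Gene families held few of the regions and 1 of the calls. Regions overlapped 12 of 439 zinc finger genes, 12 of 565 vomeronasal receptor genes, 10 of 1405 olfactory receptor genes and 5 of 644 immunoglobulin and T cell receptor segments, and none of these regions was called by library totals (5.5% higher and 0.252% lower over all regions). No defensin, Pramel, Mup or ribosomal protein pseudogene was overlapped. The olfactory receptor regions summed to 21.4, 34.1, 14.1 and 16.9 RPM in KO1, KO2, WT1 and WT2, and the segments to 10.1, 11.6, 5.58 and 34.9 RPM. The called region belonged to Sp110, a nuclear body gene of the Sp100 family, which had 56 and 73 reads in KO1 and KO2 and 41 and 23 reads in WT1 and WT2 and rose by 1.48 (edgeR FDR 0.0446). Where members of these families are near-identical copies, reads may be divided among them.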

How the data were processed

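The authors used BWA 0.7.12 for alignment of the paired-end reads to mm10, called peaks with MACS2 2.1.0 and named DiffBind for the differential analysis. Its settings, and whether peaks were called per library or on pooled libraries, are not given in the sources used here. The deposited table gives the read counts of each library per region, not normalized, and RPM values in which the authors added 1 to each count before division by the library total. This relation held within 0.000471% and gave the library totals, which may or may not include spike-in reads. Deposited columns of the authors' own comparison (fold enrichment, log2 fold change, p-value and q-value) were not used.

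Groups and replicate numbers were taken from the sample titles. Exact repeat lines were removed and no count filter was set. Counts were tested with edgeR 4.0.16 in R 4.3.3 (glmQLFit and glmQLFTest, two-sided, Benjamini-Hochberg FDR under 0.05), with library sizes set to the library totals or to the reads in regions. Single values were compared by an exact permutation test in scipy 1.17.1 (Python 3.11.15). TMM factors, DESeq2 1.42.0, a replicate block and other settings served as alternatives. The fits were tested on simulated data. The members and gene lists were chosen with earlier results of these data known. Named regions were, for each scaling, the 5 with the largest fold change per direction among those called with non-overlapping groups, those called under both scalings (up to 12), and the 5 with the highest mean RPM, with the 3 bins of smallest FDR per direction. Gene positions and sequence were read from the GRCm38 reference, and 48 regions on scaffolds were not searched for sequence. Intervals and floors (3 counts over the library total) cover counting error only.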

Additional observations from a re-analysis of the deposited data

How the results depend on the processing

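The counts of calls depended on the scaling and on the KO libraries. With TMM factors, 4 regions were higher and 34 lower, in place of 109 and 5 by library totals and 3 and 21 by region totals, and 1 bin was higher and 38 lower. Leaving out 1 library at a time (the lone library of a genotype being taken to vary like the other genotype), the counts by library totals ran from 0 to 206 higher regions, 0 to 20 lower regions, 0 to 108 higher bins and 0 to 7 lower bins. By region totals they ran from 0 to 51, 0 to 79, 0 to 27 and 0 to 39. Each 0 came from leaving out KO1 or KO2. Over the same fits the median log2 difference ran from 0.59 to 0.93 by library totals and from -0.090 to 0.19 by region totals, the negative value being that without KO2, and the difference in the share of reads from 2.45 to 4.38 percentage points. Without the 10 regions with the most reads that difference was 1.26, and with the region total computed without them 42 regions fell.

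DESeq2 called 0 regions lower by library totals (19 were lower at an unadjusted p under 0.05 in edgeR) and 1 higher by region totals. Autosomes alone gave 3 lower regions by library totals and 5 higher by region totals. A mean count of at least 10 and the repeat lines kept each gave 5 higher regions by region totals, and an FDR under 0.1 gave 6. In bins of 5 Mb, 4 fell by library totals, and 0 rose and 6 fell by region totals. The cause of these changes was not tested. Same-numbered libraries deviated together with r = 0.0252 (library totals) and 0.0315 (region totals) across regions. With few reads in most regions, such an r cannot decide whether the numbers pair them. The main fits used no pairing. With the replicate block 74 regions rose and 2 fell by library totals, and 2 rose and 3 fell by region totals. In bins the block gave 66 and 2, and 0 and 4, with medians of 0.73 and 0.08. Of the 42 values at named regions, 24 carried a call, and each of these lost it without KO1 and without KO2. Without WT2, 9 lost it and both values of Gm9245 turned. Over the 4 libraries left out in turn, its log2 fold change ran from -2.66 to 1.69 by library totals and from -3.10 to 0.78 by region totals. The median KO region held 18 to 23 reads.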

Other observations

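Regions overlapped 4 of 356 annotated ribosomal RNA genes, the mitochondrial mt-Rnr1 and mt-Rnr2 among them, and these summed to 2047, 1902, 976 and 1285 RPM in KO1, KO2, WT1 and WT2. Almost all of this sum came from the chromosome 17 locus. The mitochondrial regions summed to 10.1, 7.38, 13.2 and 7.23 RPM, with KO and WT overlapping and a median log2 fold change of -0.32. The largest region, at AY036118 on chromosome 17 (17:39843116-39847270), had 8358, 7685, 5959 and 6031 reads and a GC content of 66.4%. The KO libraries did not overlap the WT libraries in RPM there, and the log2 fold change of 0.84 by library totals did not pass (edgeR FDR 0.101). Under region totals it was 0.17.

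The intronic regions of Dgki (a diacylglycerol kinase), Kynu (kynureninase), Fut8 (the core fucosyltransferase), Jph1 (a junctophilin of muscle) and Atp7b (a copper transporter) were among the 21 that fell by region totals. Dgki had 67, 67.9, 83.4 and 85.9 RPM in KO1, KO2, WT1 and WT2, Kynu 60.6, 59.2, 74.7 and 66.0, Fut8 33.3, 37.6, 45.0 and 44.9, and Jph1 51.1, 47.4, 55.7 and 60.6. Atp7b had 27.9, 28.8, 43.7 and 35.1. In all 5 both WT libraries were above both KO libraries by library totals too, though none passed by that scaling. These genes were picked after their values had been seen.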
